A study of Mus musculus with 12 samples.

Results

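A set of 10 genes that mark mast cells, basophils and their progenitors was followed through the RNA-Seq data of mouse PreMegEs, progenitors in the bone marrow from which megakaryocytes and erythroid cells arise. The 10 genes (Il1rl1, Cpa3, Ms4a2, Hdc, Fcer1a, Fcer1g, Mitf, Cma1, Mcpt8 and Prss34) were taken by symbol from a count table of 41128 genes, and each symbol matched 1 row. The study asked how use of the 2 promoters of Runx1, distal P1 (which gives RUNX1C) and proximal P2 (which gives RUNX1B), relates to the choice between the megakaryocytic and the erythroid fate. PreMegEs were sorted in 4 groups of 3 libraries each. WT PreMegEs came from wild type mice. P2- and P2+ PreMegEs came from Runx1 P1-GFP::P2-hCD4/+ mice, which carry the GFP and hCD4 reporters on 1 copy of Runx1, and were the P1+ cells without or with the hCD4 reporter of P2 on their surface. KO PreMegEs came from mice labelled RUNX1C knockout, in which P2 is left in place. WT and KO cells were not separated by P2 activity, so a comparison of either with P2- or P2+ cells differs in genotype as well as in gating. All mice were on the C57BL/6 background and 12 to 16 weeks old, and each library was made from the pooled bone marrow of 3 mice. The sort for PreMegEs (Lin- cKit+ Sca1- CD16/32- CD41- Endoglin- CD150+) had no antibody against the IgE receptor. Outside PreMegEs, the paper reported that mast cell progenitors, defined by surface markers, lacked the hCD4 reporter of P2. It also reported more mast cells in cultures of granulocyte and macrophage progenitors (PreGM and GMP) without that reporter.

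Mast cells and basophils are granulocytes that carry FcεRI, the high-affinity receptor for IgE, and release histamine, proteases and lipid mediators when IgE on it is crosslinked. FcεRI is built from an IgE-binding α chain (Fcer1a), a signal-amplifying β chain (Ms4a2) and a signalling γ chain (Fcer1g) that it shares with other Fc receptors. Committed progenitors of both lineages transcribe part of this program early, while the chymase Cma1 belongs to mature connective tissue mast cells and the proteases Mcpt8 and Prss34 to basophils. GATA factors act in mast cells and basophils as well as in megakaryocytic and erythroid cells.

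Promoters with GATA motifs are shown for 4 of the genes: the receptor chains Ms4a2 and Fcer1a, the granule gene Cpa3 and the cytokine receptor Il1rl1, of these the one that was lower in P2+ than in P2- cells. Each runs from 250 bases before to 50 bases after a start site in RefSeq (GRCm38.p6), 5′ to 3′ on the strand of the gene, and capitals mark each match to AGATAA or TGATAA on either strand.
Ms4a2, chr19:11623670-11623969, minus strand: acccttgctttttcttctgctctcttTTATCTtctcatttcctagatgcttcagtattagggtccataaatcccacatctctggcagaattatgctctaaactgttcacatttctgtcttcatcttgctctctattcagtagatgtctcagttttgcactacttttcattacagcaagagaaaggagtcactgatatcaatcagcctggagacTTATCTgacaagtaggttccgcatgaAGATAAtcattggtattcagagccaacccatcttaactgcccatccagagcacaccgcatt
Cpa3, chr3:20242132-20242431, minus strand: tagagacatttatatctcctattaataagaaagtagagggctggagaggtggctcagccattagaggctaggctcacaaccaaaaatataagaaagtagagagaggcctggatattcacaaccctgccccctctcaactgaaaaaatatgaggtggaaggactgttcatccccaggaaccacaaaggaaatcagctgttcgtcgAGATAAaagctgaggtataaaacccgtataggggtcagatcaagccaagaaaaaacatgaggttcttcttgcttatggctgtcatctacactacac
Fcer1a, chr1:173227180-173227479, minus strand: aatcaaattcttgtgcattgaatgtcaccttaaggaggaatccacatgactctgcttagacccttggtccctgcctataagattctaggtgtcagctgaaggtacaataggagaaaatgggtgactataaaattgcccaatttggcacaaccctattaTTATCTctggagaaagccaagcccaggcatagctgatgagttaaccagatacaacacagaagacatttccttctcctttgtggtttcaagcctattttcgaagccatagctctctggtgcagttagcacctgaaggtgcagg
Il1rl1, distal start, chr1:40429320-40429619, plus strand: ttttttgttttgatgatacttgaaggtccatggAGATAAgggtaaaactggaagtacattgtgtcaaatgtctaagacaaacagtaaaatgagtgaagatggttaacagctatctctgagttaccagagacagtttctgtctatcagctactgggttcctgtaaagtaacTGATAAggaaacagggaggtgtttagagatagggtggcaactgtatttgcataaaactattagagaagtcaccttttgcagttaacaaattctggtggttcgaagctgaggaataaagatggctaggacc
Il1rl1, proximal start, chr1:40439379-40439678, plus strand: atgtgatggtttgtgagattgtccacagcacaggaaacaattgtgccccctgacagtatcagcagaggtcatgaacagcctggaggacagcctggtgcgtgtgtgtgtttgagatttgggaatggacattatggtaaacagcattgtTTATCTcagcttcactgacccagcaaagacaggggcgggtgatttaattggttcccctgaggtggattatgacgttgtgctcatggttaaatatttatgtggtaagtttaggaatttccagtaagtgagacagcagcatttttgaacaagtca
The Ms4a2 promoter held 3 matches, which began at positions -224, -37 and -11 relative to the start site. The Cpa3 match began at position -46 and the Fcer1a match at position -92. In all, RefSeq gave 13 promoters for the 10 genes, and 8 of them, from 6 genes (Il1rl1, Cpa3, Ms4a2, Fcer1a, Mitf and Prss34), held a GATA match, against 18.6% of all 32851 mouse promoters of the same length. The RUNX motif (TGTGGT or TGCGGT on either strand) was found in 9 of the 13 promoters, against 22.4% of all promoters. It was present in at least 1 promoter of every gene but Hdc. The E-box read by Mitf (CACGTG or CATGTG on either strand) was found only in the promoters of Fcer1a and Prss34 among the 13, against 20.4% of all promoters. The ETS motif (AGGAAG or CGGAAG on either strand) was found in 4 of the 13, in Hdc, Fcer1g, Mitf and Cma1, against 46.5% of all promoters. These are matches of letters in a fixed window, and no binding was measured.

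The libraries held between 10726098 and 14445026 counts (median 12284879), and a count of 0 allows up to 3 counts, or 0.208 to 0.286 CPM (counts scaled by TMM to the size of the library) depending on the library. Such limits and the intervals below cover counting error only. Runx1 was at 370 ± 16.1 CPM (mean ± SD, n = 3) in WT, 210 ± 7.83 in P2-, 632 ± 23.6 in P2+ and 360 ± 20.9 in KO cells. The counts do not separate transcripts of P1 from those of P2, so they do not check the knockout label. Of the markers the gate selects for, Kit was between 815 and 1088 CPM and Slamf1 (CD150) between 36.1 and 59.1 CPM in the group means. Of those kept low or negative as surface proteins, Eng (Endoglin) was between 104 and 128 CPM, and Itga2b (CD41) was at 50.7 CPM in P2-, 115 in KO, 156 in WT and 283 in P2+ cells. Fcgr2b, which encodes the CD32 that the CD16/32 gate detects, was at 7.54 CPM in P2-, 8.48 in WT and 12.0 in KO cells and was higher in P2+ than in P2- cells (log2 fold change 1.15 ± 0.15, edgeR adjusted p = 0.000511). Replicate 2 of both P2- and P2+ cells stood apart in a list of 12 immediate early genes, which summed to 13192 and 9136 CPM there and to between 170 and 1258 CPM in the other 10 libraries. In these bulk samples, fewer cells that express a gene and less RNA of it per cell cannot be told apart.

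In the 4 groups, 6 of the genes (Il1rl1, Ms4a2, Cpa3, Hdc, Mitf and Fcer1g) were transcribed in all 12 libraries, and the 3 protease genes of mature cells were at or near 0. P2+ cells had more Ms4a2, Cpa3, Mitf, Hdc and Fcer1g than P2- cells and less Il1rl1. KO cells had more Il1rl1 and Cpa3 than WT cells, by just under 2-fold. They had almost no Fcer1a, and P2- cells had 0 counts of it.

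**Figure D1:**
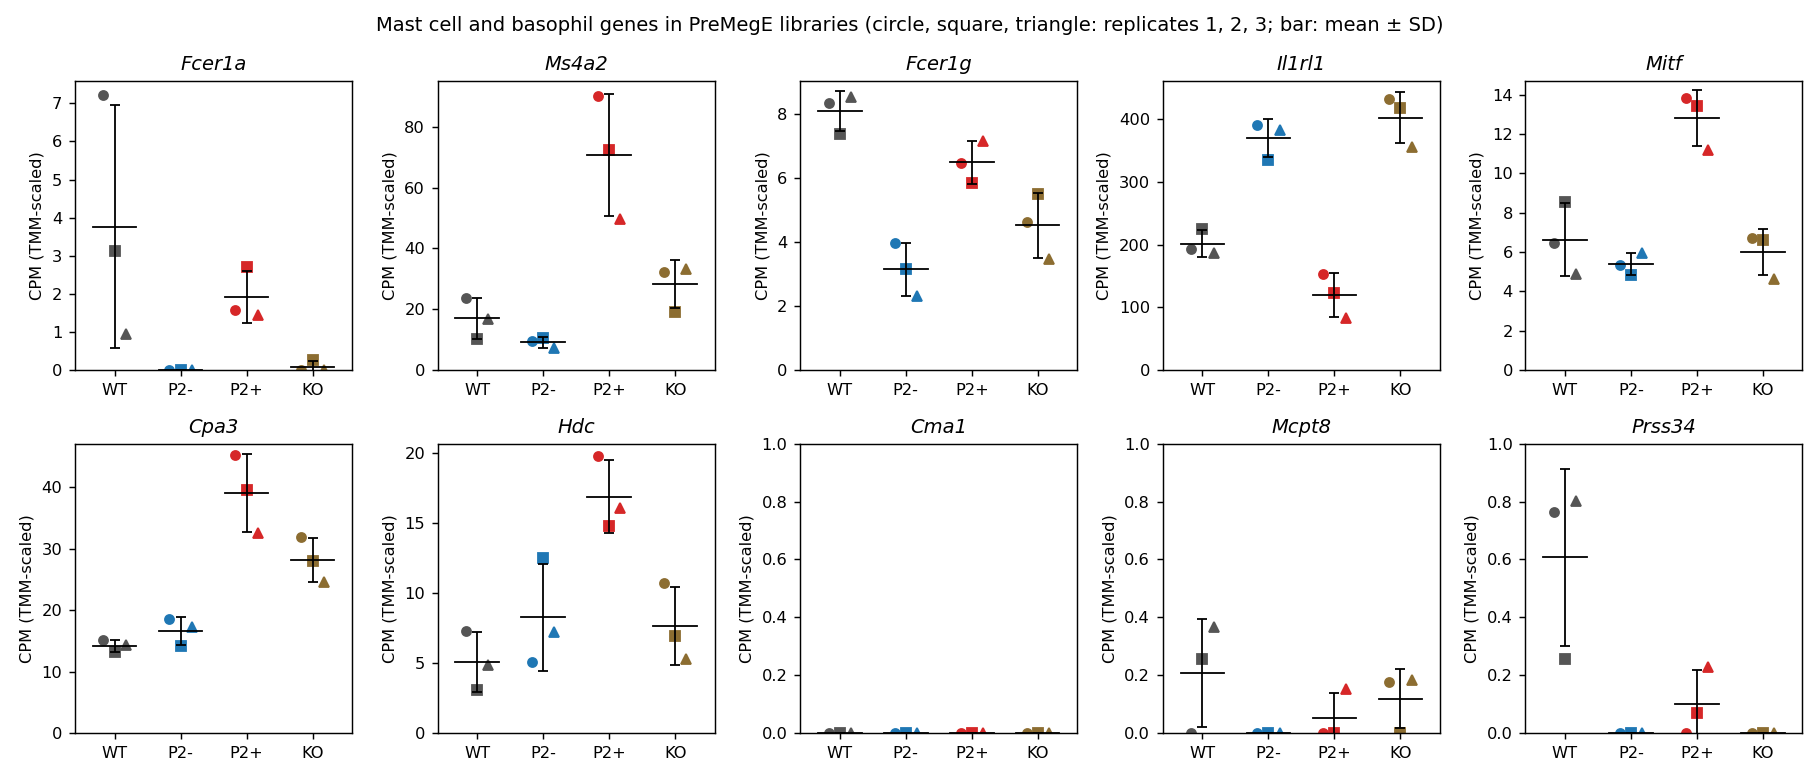
CPM (y axes, linear, a separate scale for each gene) of the 10 genes in each library of the 4 groups (x axes); points are libraries, horizontal bars the mean and error bars the SD of 3 libraries. Il1rl1 is lowest in P2+ cells, whereas Ms4a2, Cpa3, Mitf and Hdc are highest there, and Cma1 is at 0 in all 12 libraries.

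Genes were tested between 2 groups at a time with the quasi-likelihood test of edgeR, with Benjamini-Hochberg adjustment over all genes tested. A gene is said to have changed where the adjusted p was under 0.05 and the difference at least 2-fold. The p-values rest on 3 libraries of pooled mice in each group. A gene had to reach 1 CPM in 3 or more of the 6 libraries compared to be tested.

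Between P2+ and P2- PreMegEs, 12.7% of the 12836 genes tested changed. Of the 10 genes, 7 passed the filter, and all 7 changed, 6 being higher in P2+ cells (9.54% of all genes) and 1, Il1rl1, lower (3.13% of all genes). For each of the 7, all P2+ libraries lay on one side of all P2- libraries, as was so for 49.3% of all genes. The median log2 fold change of the 7 was 1.24, and that of all genes tested -0.02. Fcer1a passed the filter only through the P2+ libraries, so its difference was fixed by the filter, and without it 5 of 6 were higher, 1 was lower and the median was 1.14. Cma1, Mcpt8 and Prss34 did not pass it. Without replicate 3 of P2+ cells 4 genes changed (Il1rl1, Cpa3, Mitf and Ms4a2), and without replicate 3 of P2- cells or replicate 1 of P2+ cells 5 did. The replicate numbers pair P2+ with P2- libraries. These fits did not use the pairing, and leaving out 1 library breaks a pair. With the number as a block all 7 changed as well (edgeR adjusted p = 0.00747 for Fcer1g and 0.00276 for Hdc).

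Of the receptor chains, Ms4a2 (ENSMUSG00000024680, chr19:11615523-11623719) was higher in P2+ than in P2- cells. It was at 90.0, 72.2 and 49.8 CPM in P2+ and at 9.62, 10.7 and 7.16 CPM in P2- libraries. Every P2+ library lay far above every P2- library, and the means differed 7.72-fold (log2 fold change 2.96 ± 0.24 (SE), edgeR adjusted p = 2.96e-05). WT libraries, at 23.9, 10.3 and 16.9 CPM, lay below all P2+ libraries and overlapped P2- libraries. KO libraries had 32.1, 19.1 and 33.4 CPM, of which replicate 2 lay within the range of WT.

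Fcer1a (ENSMUSG00000005339, chr1:173221284-173227214), the α chain that binds IgE, was a gene of few counts. It had 104, 37 and 13 counts in the WT libraries, 19, 39 and 19 in P2+ libraries and 0 in each P2- library. The KO libraries had 0, 3 and 0 counts. WT libraries differed by more among themselves, from 0.948 to 7.22 CPM, than the P2+ libraries did from 1.45 to 2.71 CPM. Against the limit of 3 counts for each P2- library, Fcer1a was at least 15.4-fold higher in WT and at least 7.82-fold higher in P2+ than in P2- cells. Without replicate 1 of WT, the library with the most, the WT limit was 8.33-fold. KO cells had 3 counts in all, and relative to them the summed counts, scaled to library size, were 43.9 times as high in WT (95% exact counting interval 14.7 to 215) and 22.2 times as high in P2+ cells (7.31 to 110.0). Without replicate 1 of WT the WT ratio was 22.3 (7.20 to 112). WT and P2+ libraries overlapped (log2 fold change of P2+ against WT -0.96 ± 0.60, edgeR adjusted p = 0.316).

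Fcer1g (ENSMUSG00000058715, chr1:171229572-171234365), which also serves Fc receptors of other myeloid cells, was at 6.45, 5.83 and 7.16 CPM in P2+ and at 3.97, 3.15 and 2.32 CPM in P2- libraries. The groups did not overlap and differed by 1.05 ± 0.27 on the log2 scale (edgeR adjusted p = 0.0144), a call that was lost without replicate 3 of either group. WT cells had the most, at 8.33, 7.38 and 8.54 CPM, and every WT library lay above every P2- and KO library. The list of neutrophil and monocyte markers, which need not carry FcεRI, was also higher in P2+ and WT than in P2- and KO means: 14 of its 15 genes reached 1 CPM in some library, and its summed level was 352 to 480 CPM in P2+, 69.7 to 169 in P2-, 184 to 324 in WT and 93.8 to 145 in KO libraries. Mpo and Lyz2 made up most of the group means of this sum. Replicate 2 of P2- cells stood apart at 169 CPM, against 76.8 and 69.7 in the other P2- libraries. The neutrophil granule genes S100a8, S100a9, Ltf, Camp and Ngp had their highest means in P2- cells. No tested gene of the list passed the adjusted p as higher in P2- than in WT or P2+ cells. The part of such cells in the level of Fcer1g was not tested.

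Per kilobase of exon, the 3 chains stood in different proportions in the 4 groups. In P2+ cells the levels were 25.1 ± 7.16 RPKM for Ms4a2, 7.42 ± 0.761 for Fcer1g and 1.92 ± 0.692 for Fcer1a, and Ms4a2 exceeded Fcer1g in each library, 2.16- to 4.34-fold. In WT cells Ms4a2 was below Fcer1g in each library, at 0.432 to 0.891 of its RPKM. In P2- cells the ratio of their RPKM was 0.752 to 1.05, and in KO cells 1.08 to 3.00, so Ms4a2 exceeded Fcer1g in each KO library as well. A 3 against 3 exact permutation test of the ratio cannot give a p below 0.1, and none was run.

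**Figure D2:**
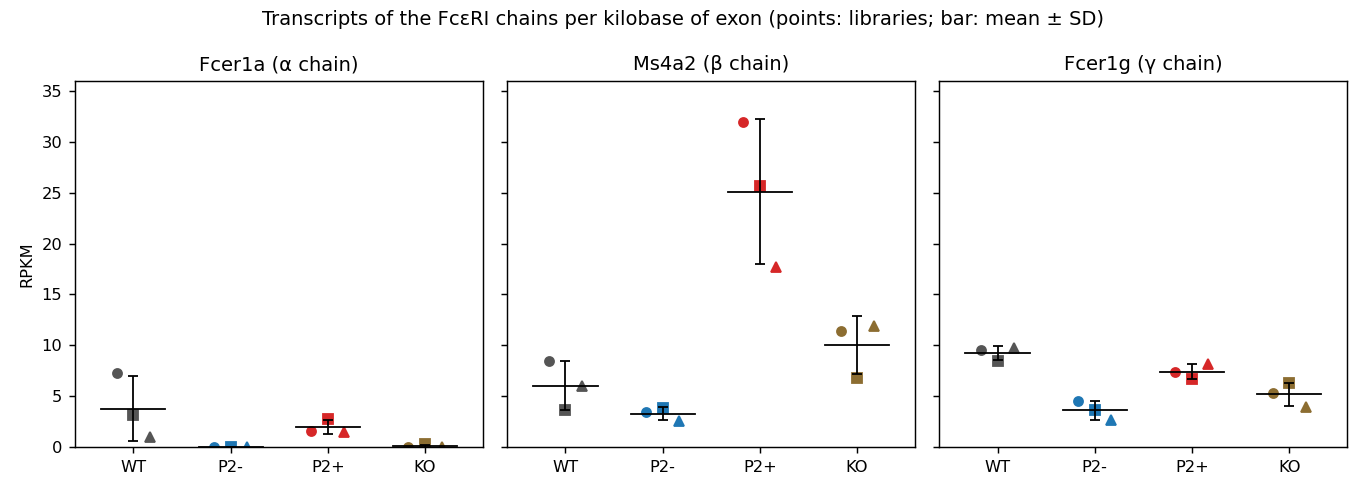
RPKM (y axis, linear, from 0) of the α, β and γ chains of FcεRI in each library of the 4 groups (x axes); points are libraries, horizontal bars the mean and error bars the SD of 3 libraries. The β chain Ms4a2 rises to between 17.7 and 32.0 RPKM in P2+ libraries, while the α chain is at 0 in all P2- libraries.

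Il1rl1 (ENSMUSG00000026069, chr1:40429570-40465415), which encodes ST2, the receptor for IL-33, was the most abundant of the 10 transcripts per kilobase in WT, P2- and KO cells and the only one that was lower in P2+ than in P2- cells. It was at 153, 124 and 82.9 CPM in P2+ and at 391, 335 and 382 CPM in P2- libraries. Every P2+ library lay below every P2- library (log2 fold change -1.62 ± 0.19, edgeR adjusted p = 0.000253). WT libraries were at 193, 226 and 187 CPM, between the ranges of the fractions. KO libraries, at 433, 418 and 356 CPM, overlapped P2- libraries and lay above all WT libraries. The order of the means was thus KO, P2-, WT and P2+, and the neighbours KO and P2- did not differ beyond their spread (log2 fold change 0.11 ± 0.09, edgeR adjusted p = 0.583). A list of 14 erythroid markers, of which 12 passed the filter in each comparison and 2 stayed under 1 CPM in all libraries, was likewise higher in KO and P2- than in WT libraries and lowest in P2+ libraries, although P2- had the highest mean: it summed to 5660 to 6387 CPM in KO, 5866 to 6723 in P2-, 3326 to 3845 in WT and 1299 to 1494 in P2+ libraries. Aqp1, Car2 and Ermap made up most of the sum in KO and P2- cells, whereas the globin genes Hbb-bs and Hbb-bt, at group means of 12.3 and 3.67 CPM or less, had their highest means in P2+ cells. Its part in the level of Il1rl1 was not tested.

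Il1rl1 made up 88.1% to 90.5% of the summed CPM of the 10 genes in P2- libraries, 83.3% to 86.3% in KO, 73.6% to 83.1% in WT and 41.1% to 46.3% in P2+ libraries. The other 9 genes summed to 119 to 177 CPM in P2+ libraries and to 39.9 to 45.3 CPM in P2- libraries. Relative to Cpa3, Il1rl1 was at 21.0 to 23.8 times its CPM in P2-, 12.7 to 17.2 in WT, 13.6 to 14.9 in KO and 2.54 to 3.37 in P2+ libraries. WT and KO libraries overlapped in this ratio, and neither P2- nor P2+ libraries overlapped with them.

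**Figure D3:**
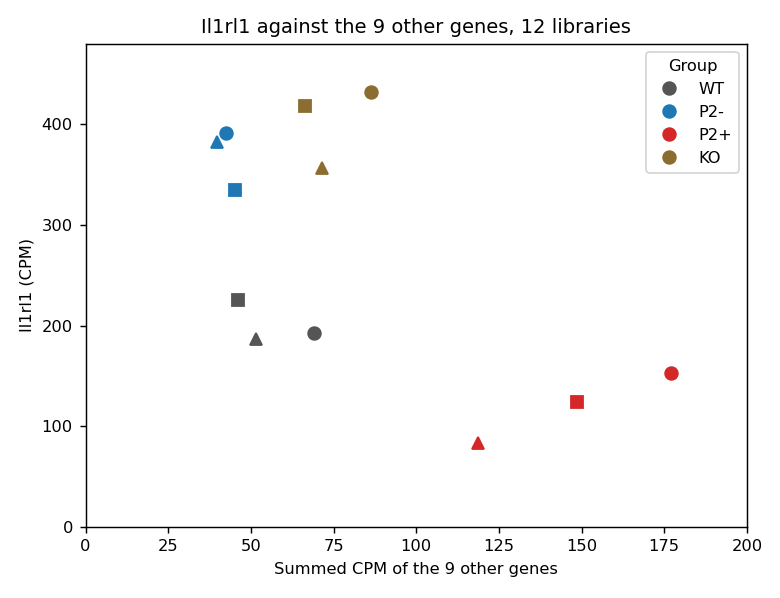
CPM of Il1rl1 (y axis) against the summed CPM of the 9 other genes (x axis) in the 12 libraries, both axes linear from 0, with colour for the group and marker shape for the replicate. P2+ libraries lie at 119 to 177 CPM on the x axis with the lowest Il1rl1, and P2- libraries at 39.9 to 45.3 CPM.

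Of the enzymes of the granules, Cpa3 (ENSMUSG00000001865, chr3:20215620-20242181), mast cell carboxypeptidase, was at 45.3, 39.5 and 32.6 CPM in P2+ and at 18.6, 14.1 and 17.2 CPM in P2- libraries. The groups did not overlap (log2 fold change 1.24 ± 0.16, edgeR adjusted p = 0.000377). KO libraries, at 31.8, 28.0 and 24.7 CPM, lay between all P2+ and all P2- libraries, and WT libraries, at 15.1, 13.1 and 14.3 CPM, overlapped P2- libraries. The order of the means was P2+, KO, P2- and WT, and the neighbours P2- and WT did not differ beyond their spread (edgeR adjusted p = 0.328).

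Hdc (ENSMUSG00000027360, chr2:126593667-126619299), histidine decarboxylase, makes histamine. It was at 19.8, 14.8 and 16.1 CPM in P2+ and at 5.09, 12.5 and 7.23 CPM in P2- libraries. No P2+ library was as low as any P2- library (log2 fold change 1.04 ± 0.30, edgeR adjusted p = 0.0255). Replicate 2 of P2- cells, the library with the most immediate early transcripts, was the highest of its group. Without replicate 2 of both groups the log2 fold change was 1.56, and the call was lost without replicate 1 or 3 of either group (log2 fold changes 0.78 to 1.08). WT libraries, at 7.29, 3.05 and 4.89 CPM, and KO libraries, at 10.7, 6.94 and 5.28 CPM, overlapped P2- libraries.

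Mitf (ENSMUSG00000035158, chr6:97807052-98021349), the transcription factor that acts downstream of Kit in mast cells, was at 13.8, 13.4 and 11.2 CPM in P2+ and at 5.33, 4.86 and 5.97 CPM in P2- libraries. It was higher in every P2+ library than in any library of the other groups (log2 fold change against P2- 1.25 ± 0.18, edgeR adjusted p = 0.000827). WT libraries were at 6.46, 8.56 and 4.89 CPM and KO libraries at 6.72, 6.60 and 4.64 CPM, and both overlapped P2- libraries. RefSeq gave Mitf 3 start sites, which the counts do not separate.

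The genes of mature cells were absent or near the limit of detection. Cma1 (ENSMUSG00000022225, chr14:55941451-55944675) had 0 counts in all 12 libraries. Mcpt8 (ENSMUSG00000022157, chr14:56082166-56085273) had at most 5 counts in a library, namely 0, 3 and 5 in WT, 0, 0 and 2 in P2+, 2, 0 and 2 in KO and 0 in each P2- library. Prss34 (ENSMUSG00000056399, chr17:25298394-25300165) had 11, 3 and 11 counts in WT, 0, 1 and 3 in P2+ and 0 in each P2- and KO library. The counts of both basophil proteases were thus highest in WT cells and at 0 in P2- cells. In the list of 9 mast cell markers, 5 (Cma1, Mcpt4, Tpsb2, Tpsab1 and Mrgprb2) were at 0 in all 12 libraries, and of the 6 basophil markers Mcpt8 and Prss34 stayed under 1 CPM throughout. The defining proteases of mature mast cells were therefore not detectable at this depth in the libraries where Ms4a2 and Cpa3 were high.

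Against WT cells, the question was whether each reporter fraction departed from unseparated PreMegEs. The same 3 WT libraries served in both comparisons and in that with KO cells. In P2- cells 4.68% of the 12767 genes tested changed against WT, and of the 6 of the 10 genes tested 1 did, Fcer1g, which was lower, as were 4.1% of all genes (log2 fold change -1.35 ± 0.25, edgeR adjusted p = 0.00584). Il1rl1 passed the adjusted p alone, as 16.5% of all genes did, and was higher by 0.88 ± 0.10 on the log2 scale (edgeR adjusted p = 0.000234). Ms4a2 gave -0.89 ± 0.28 (edgeR adjusted p = 0.0562) and became a call without replicate 2 of either group. The median log2 fold change of the 6 was -0.02 and that of all genes 0.01. Fcer1a was not tested, because 2 WT libraries alone reached 1 CPM, but it was called lower with no filter on low counts (edgeR adjusted p = 2.21e-06) and by DESeq2 (1.53e-07). With filterByExpr (0.00543) it passed only through the WT libraries, which fixed its direction. With no filter, Prss34 was called lower as well (edgeR adjusted p = 0.0199).

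In P2+ cells 3.84% of the 12941 genes tested changed against WT, and of the 7 of the 10 genes tested 3 did, all higher (2.16% of all genes). These were Ms4a2 (log2 fold change 2.05 ± 0.27, edgeR adjusted p = 0.000727), Hdc (1.73 ± 0.28, 0.00204) and Cpa3 (1.47 ± 0.15, 0.000126), and none of their libraries overlapped with WT. Mitf (0.96 ± 0.23, edgeR adjusted p = 0.0167) and Il1rl1 (-0.75 ± 0.18, 0.0176) passed the adjusted p, as 16.5% of all genes did, but not the 2-fold limit. Fcer1g (-0.31 ± 0.20, edgeR adjusted p = 0.332) passed neither. The median log2 fold change of the 7 was 0.96 and that of all genes 0.00.

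The mean of the WT cells did not always lie between those of the fractions. It did so for Il1rl1, Ms4a2 and Mitf, lay below both for Cpa3 and Hdc, and lay above both for Fcer1a, Fcer1g, Mcpt8 and Prss34. For Cpa3, Hdc, Fcer1g and Fcer1a the difference between WT and the nearer fraction did not pass the adjusted p in the tests given here (Hdc in P2- against WT, log2 fold change 0.70 ± 0.38, edgeR adjusted p = 0.242). Of these, Fcer1g did not overlap, since every WT library lay above every P2+ library. Mcpt8 and Prss34 did not pass the filter, and without it their difference between P2+ and WT cells gave edgeR adjusted p = 0.573 and 0.204.

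**Figure D4:**
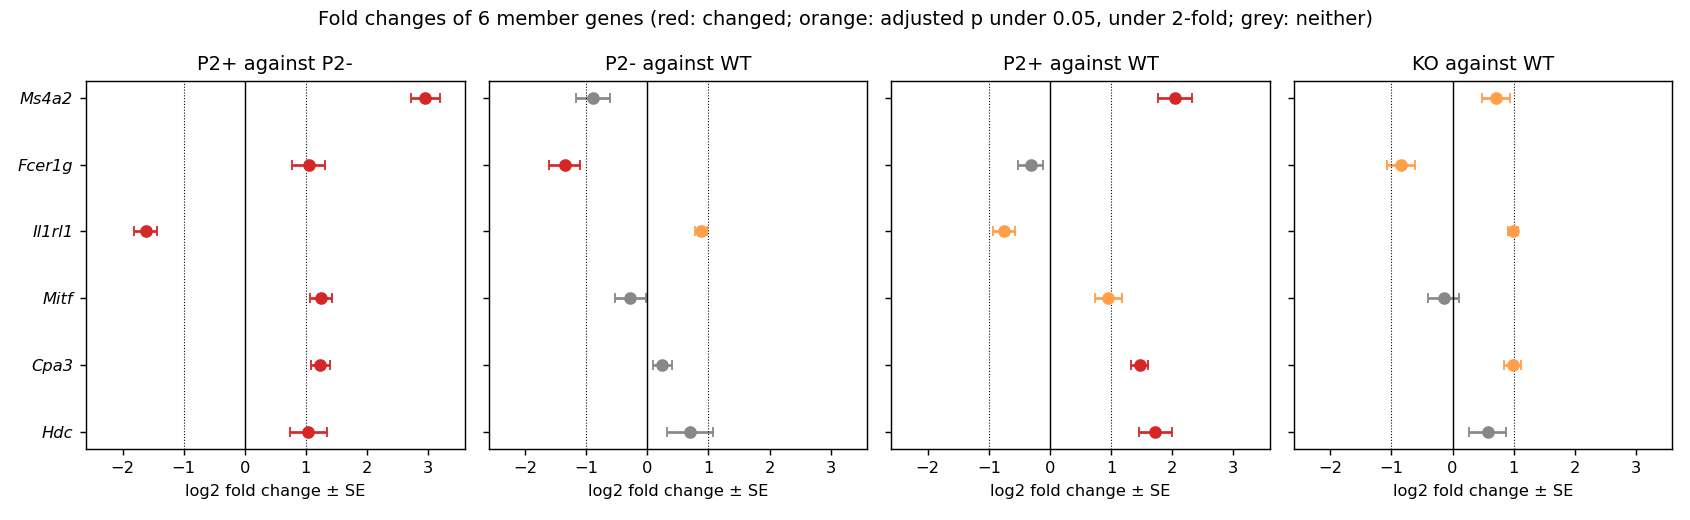
Log2 fold change (x axis) with its SE of 6 of the genes (y axis) in 4 comparisons, one in each panel, with dotted lines at 2-fold; Fcer1a is not drawn because P2- and KO cells had it at or near 0. All 6 points are past 2-fold in P2+ against P2- cells, with Il1rl1 alone to the left of 0, and none is past 2-fold in KO against WT cells.

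The comparison of KO with WT PreMegEs addressed the loss of RUNX1C. In it 3.41% of the 12784 genes tested changed, and none of the 6 of the 10 genes that were tested did. By edgeR's quasi-likelihood test 4 of the 6 had an unadjusted p under 0.05, the same number as passed at the adjusted p alone, as 14.9% of all genes did. DESeq2 called 1 gene, Fcer1a, and the exact test of edgeR called 0. Il1rl1 was 1.99-fold as high in KO as in WT cells (log2 fold change 0.99 ± 0.08, adjusted p = 2.01e-07), and Cpa3 was 1.99-fold as high (0.98 ± 0.13, 6.06e-05). No KO library overlapped with WT for either gene, and both lay just under the 2-fold limit. Ms4a2 was higher by 0.71 ± 0.23 (edgeR adjusted p = 0.0469), with replicate 2 of KO among the WT libraries, and Fcer1g was lower by 0.84 ± 0.23 (log2 fold change -0.84, edgeR adjusted p = 0.0204). Hdc (0.57 ± 0.31, edgeR adjusted p = 0.243) and Mitf (-0.15 ± 0.25, 0.767) did not pass. With 1 library left out, 1 or 2 genes passed the 2-fold limit in some cases: Cpa3 and Ms4a2 without replicate 1 of WT, Il1rl1 without replicate 2 of WT, Fcer1g without replicate 2 of KO, and Cpa3 and Il1rl1 without replicate 3 of KO. The median log2 fold change of the 6 was 0.64 and that of all genes 0.00. The loss of Fcer1a in KO cells was seen only where its few counts entered the test: it was called lower with no filter (edgeR adjusted p = 1.47e-14) and by DESeq2 (0.00493). With filterByExpr (0.000583) it passed only through the WT libraries, which fixed its direction. With no filter, Prss34 was called lower as well (edgeR adjusted p = 0.0119).

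KO cells were also set beside each fraction, to place their levels among the 4 groups. Against P2- cells 0.508% of the 12588 genes tested changed, and of the 6 of the 10 genes tested only Ms4a2 did, in the direction of 0.437% of all genes. It was 3.08-fold as high in KO cells (log2 fold change 1.62 ± 0.23, edgeR adjusted p = 0.00804), and the call was lost without replicate 1 or 3 of KO cells (adjusted p = 0.0598 and 0.0535). Cpa3 was higher by 0.75 ± 0.15 (edgeR adjusted p = 0.0330), under the 2-fold limit, and 1.61% of all genes passed the adjusted p alone. Against P2+ cells 11.4% of the 12807 genes tested changed, and of the 7 of the 10 genes tested 5 did, 1 higher (3.03% of all genes) and 4 lower (8.32%). Il1rl1 was higher in KO cells (log2 fold change 1.74 ± 0.18, edgeR adjusted p = 3.29e-05). Ms4a2 (-1.34 ± 0.23, edgeR adjusted p = 0.00110), Hdc (-1.15 ± 0.24, 0.00387), Mitf (-1.11 ± 0.20, 0.00167) and Fcer1a were lower. Fcer1a passed the filter only through the P2+ libraries, so its difference was fixed by the filter. Without it, of 6 genes 1 was higher and 3 were lower. Without replicate 3 of KO cells Hdc and Mitf were no longer called. In P2- against KO cells the differences of Il1rl1, Mitf (log2 fold change of KO against P2- 0.14 ± 0.23, edgeR adjusted p = 0.817) and Hdc (-0.11 ± 0.35, 0.910) were within the spread between libraries. Cpa3 was lower by a log2 fold change of -0.48 ± 0.14 in KO than in P2+ cells (edgeR adjusted p = 0.0214), under the 2-fold limit as well. The means of Cpa3 and Ms4a2 in KO cells lay between those of P2- and P2+ cells.

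Other genes of the mast cell and basophil program were examined in 5 lists, and members of these lists were counted by the same rule. The counts between P2+ and P2- cells stand beside 9.54% of all genes higher and 3.13% lower. Of 20 receptor genes tested, 10 were higher and 0 lower, with a median log2 fold change of 1.20. One of the 10, Cysltr1, passed the filter only through P2+ libraries, and without it the count was 9 of 19 and the median 1.08. Csf2rb, the shared β chain of the IL-3, IL-5 and GM-CSF receptors, was at 47.3 ± 17.9 CPM in P2+ and 5.34 ± 2.33 in P2- cells (log2 fold change 3.13 ± 0.36, edgeR adjusted p = 0.000237). Its close paralog Csf2rb2, the β chain of the IL-3 receptor in mice, differed by 3.07 ± 0.37, and reads that fit both genes could have been split between them. The chemokine receptor Cxcr2 (3.59 ± 0.49) and the prostaglandin E receptor Ptger3 (1.73 ± 0.11) were higher as well. Of 19 genes of granules and mediators tested, 9 were higher and 0 lower, with a median of 1.14. Hs3st1 and Hpgds passed the filter only through P2+ libraries, and without them the count was 7 of 17 and the median 1.09. Ptgs1, the cyclooxygenase of prostaglandin synthesis, was at 85.0 ± 6.28 CPM in P2+ and 8.40 ± 1.29 in P2- cells (log2 fold change 3.34 ± 0.14, edgeR adjusted p = 1.54e-06). Rab27b, which acts in granule release, differed by 2.12 ± 0.15, Alox5ap of leukotriene synthesis by 1.62 ± 0.14, and the phospholipase Pla2g4a by 1.53 ± 0.12. Several of these genes, among them Ptgs1 and Rab27b, are also transcribed in megakaryocytes, and the summed level of 13 megakaryocyte markers was 1269 to 1841 CPM in P2+ and 294 to 375 CPM in P2- libraries. Of the markers of other cells tested, 8 of 12 neutrophil and monocyte (median 2.25) and 3 of 6 lymphoid markers (1.84) were higher in P2+ than in P2- cells. Of 12 erythroid markers 9 were lower (-2.55). The part of megakaryocytic or other such transcription in the counts of the receptor and granule lists was not tested.

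Of 25 genes of FcεRI signalling tested, 5 were higher in P2+ than in P2- cells and 0 lower, with a median log2 fold change of 0.53 (4 of 24 without Ms4a3, which passed only through P2+ libraries). Plcg2 (log2 fold change 1.81 ± 0.12) and the Src family kinase Fyn (1.21 ± 0.10) were those of the 5 with at least 10 CPM in P2+ cells and no overlap between the groups. Of 22 transcription factors tested, 4 were higher and 2 lower, with a median of 0.26 (without Nfil3, which passed only through P2+ libraries, 3 of 21 and 0.16). Tfec, of the same family as Mitf, was higher (3.18 ± 0.38), whereas Tfe3, the other family member in the list that changed, was lower (-1.14 ± 0.07). Hlf was higher (1.68 ± 0.11) and Myb lower (-1.24 ± 0.07). None of the 9 Kit pathway genes tested changed by edgeR, and their median was -0.15. At the adjusted p alone 4 of them passed, 1 higher and 3 lower, as 37.1% of all genes did in either direction.

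**Figure D5:**
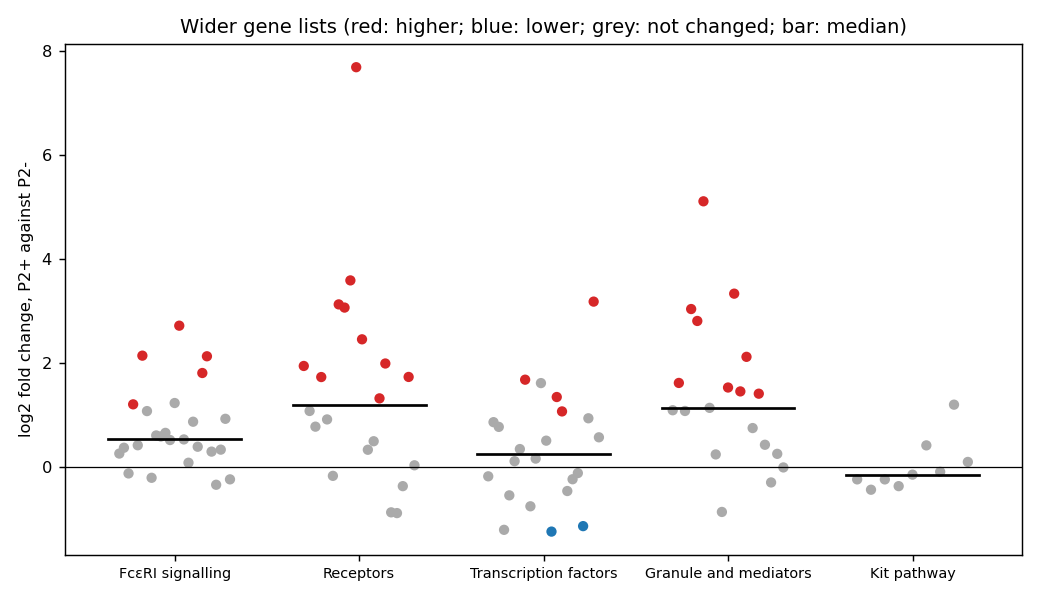
Log2 fold change of P2+ against P2- cells (y axis) for each tested gene of 5 lists of the mast cell and basophil program (x axis), with the median of each list as a bar. The medians are 0.53, 1.20, 0.26, 1.14 and -0.15 from left to right, and the highest point is Cysltr1, which had no counts in P2- libraries, so that its fitted value is no measure of size.

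Against WT cells, 4.1% of all genes were lower in P2- cells, which had 6 of 20 receptor genes lower and 0 higher (median log2 fold change -0.56), 3 of 17 granule and mediator genes lower and 0 higher (-0.56), 4 of 24 signalling genes lower and 0 higher (-0.23), and 2 of 20 transcription factors lower and 0 higher (-0.05). Of the genes counted, Il18r1 and Ms4a3 passed only through WT libraries, and without them the counts were 5 of 19 receptor and 3 of 23 signalling genes. Without replicate 1 of WT, 3 of the 6 receptor (Csf2rb2, Cxcr2 and Il18r1 lost), 2 of the 3 granule (Ctsg lost), 2 of the 4 signalling (Fyn and Ms4a3 lost) and 1 of the 2 transcription factor calls (Irf8 lost) remained. Without replicate 3 of WT, 2 of the 4 signalling calls remained, and without replicate 3 of P2- cells Irf8 was lost. Markers of other cells were lower in P2- than in WT cells as well, with 8 of 12 megakaryocyte (median -1.74), 5 of 11 neutrophil and monocyte (-1.14) and 3 of 6 lymphoid markers tested (-1.27), and Ctsg and Ms4a3 belong to the neutrophil and monocyte list too. The megakaryocyte list summed to 799.6 to 906 CPM in WT and 669.8 to 697 CPM in KO libraries. The part of these cells in the counts was not tested. Ptgs1 (-2.06 ± 0.15), Cd9 (-1.32 ± 0.09), Csf2rb (-1.30 ± 0.28) and Plcg2 (-1.07 ± 0.11) were among those lower. P2+ cells, in which 2.16% of all genes were higher than in WT and 3.84% changed in either direction, had 7 of 21 receptor genes higher and 2 lower (median 0.40) and 3 of 19 granule and mediator genes higher and 0 lower (0.31). They also had 1 of 24 signalling genes (0.23), 3 of 21 transcription factors (0.01) and 1 of 9 Kit pathway genes (-0.08) higher and 0 lower. Of the markers of other cells tested, 2 of 12 megakaryocyte markers were higher and 1 lower (0.81). Of neutrophil and monocyte markers 1 of 10 was higher (0.44), and 8 of 12 erythroid markers were lower (-1.77). Of 11 immediate early genes 3 were higher (2.43). The part of these genes in the counts was not tested. When any 1 of the WT libraries or replicate 3 of P2+ cells was left out, 4 of the 7 higher receptor calls remained, with Cd200r1, Cd69, Cxcr2 and Itga2 lost in different sets. The signalling gene, Prkcb, lost its call when any 1 library other than replicate 3 of P2+ cells was left out. Of the 2 lower receptor genes, Itgb7 (integrin β7, which marks mast cell progenitors) was at 16.7 CPM in P2+ against 36.2 in WT cells and kept its call whichever 1 library was left out (log2 fold change -1.11 ± 0.16, edgeR adjusted p = 0.00108), whereas Il18r1 lost it when any 1 library other than replicate 1 of P2+ cells was left out. Csf2rb (1.82 ± 0.26), Slc7a8 (1.65 ± 0.12), Ptgs1 (1.26 ± 0.09), Ptger3 (1.18 ± 0.09) and Tfec (1.14 ± 0.22) were among those higher, and the call of Tfec was lost without replicate 1 of P2+ cells. Cd69, Bhlhe40 and Cebpb were also higher, but no such call held without replicate 2 of P2+ cells, the library with the high immediate early transcripts (log2 fold changes 0.48, 0.70 and 0.61), or when any 1 of the WT libraries was left out, so that 1 of the 3 transcription factor calls then remained. In KO cells, where 3.41% of all genes changed in either direction, 3 of 20 receptor genes, 1 of 19 granule and mediator genes, 3 of 24 signalling genes and 2 of 20 transcription factors were lower than in WT and 0 higher (medians -0.14, -0.13, -0.12 and -0.10). Il18r1 again passed only through WT libraries, and without it 2 of 19 receptor genes were lower. Without replicate 1 of WT, 1 of the 3 signalling calls (Ms4a3 and Prkcb lost), 1 of the 2 transcription factor calls and no granule call (Ctsg lost) remained. The same signalling calls were lost without replicate 2 or 3 of KO cells, Ctsg without replicate 3 of KO cells and Egr1 without replicate 3 of WT. Of the markers of other cells, 5 of 10 neutrophil and monocyte (median -1.34), 3 of 12 megakaryocyte (-0.62) and 2 of 7 lymphoid markers tested (-0.73) were lower in KO than in WT cells. Ctsg and Ms4a3 are also in the neutrophil and monocyte list, and Cd69 and Egr1 are also in that of immediate early genes. Their part in these counts was not tested. Of the transcription factors, Cebpa fell by 1.29 on the log2 scale (log2 fold change -1.29 ± 0.23, edgeR adjusted p = 0.000819), a call that was lost without replicate 1 of WT cells.

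The genes whose levels ran most like those of the 5 genes that reached a mean of 10 CPM in some group were found by Pearson's r of log2 CPM over the 12 libraries among 13272 genes. These values describe 4 groups of libraries that differ in many genes at once, and have no test. Ms4a2 ran most like Csf3r (r = 0.973), the G-CSF receptor of neutrophils, and Fcgr2b (0.949), an inhibitory Fc receptor that mast cells also carry. Il1rl1 ran most like Usp33 (r = 0.990), Camsap2 (0.982) and Abcg4 (0.982). Cpa3 ran most like Plin3 (r = 0.946) and Slc7a8 (0.939), Mitf most like 5730409E04Rik (0.960) and Hdc most like Syf2 (0.916). With the group means taken away, r with the gene most alike was 0.870 for Il1rl1, 0.799 for Hdc, 0.754 for Mitf, 0.713 for Ms4a2 and 0.693 for Cpa3, and 0.185 for Cpa3 with Slc7a8.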

How the data were processed

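RNA-Seq was carried out on PreMegEs of 4 groups with 3 libraries each. Stranded poly(A) libraries were sequenced in pairs of reads, which the authors mapped to GRCm38 (Bowtie2) and assigned to Ensembl genes. The deposited values are raw counts per gene and library. Whether counting used the strand, and whether KO libraries were sequenced with the others, is not given in the sources used here. From the counts, TMM-scaled CPM, RPKM (exonic length over all transcripts, GENCODE vM21) and the quasi-likelihood test were computed with edgeR 4.0.16 in R 4.3.3, on 2 groups at a time, for genes that reached 1 CPM in 3 or more of the 6 libraries. The test was tested on simulated data first. Alternatives were DESeq2 1.42.0, the exact test, other size factors, other filters, no minimum fold, 1 fit over all libraries, a replicate block and leaving out each library.

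The 10 genes and all lists were chosen with earlier results of these data known. Genes named outside the 10 are the up to 4 per list and comparison with the largest change among those called, whose groups did not overlap and whose higher mean was 10 CPM or more, or the 5 nearest in pattern. Others, named beside a count or as markers of the gate or of other cells, were chosen after their values were seen. Deviations from the group means were correlated between P2+ and P2- libraries that share a number (r = 0.402, 0.590 and 0.432 across genes, and each of the 6 samples correlated best with its own number), so these numbers pair the samples. In KO against WT cells, which came from different mice, 5 of the 6 samples correlated best with their own number as well, at r of 0.0222 to 0.186. What these numbers share is not given. In the remaining comparisons at most 2 of the 6 did, and the numbers do not pair the samples. All pairs of replicates differed by more than counting error. Promoters were taken from RefSeq for all 10 genes.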

Additional observations from a re-analysis of the deposited data

How the results depend on the processing

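The 10 genes gave 546 log2 fold changes under the alternatives, of which 513 kept their direction and side of the threshold, 19 passed it, 10 no longer did and 4 turned sign. The 4 were of genes not called: Mitf in KO against WT cells (0.076 without replicate 2 of WT and 0.0053 without replicate 3 of KO, in a range of -0.33 to 0.076) and Hdc in KO against P2- cells (0.30 without replicate 2 of P2- and 0.091 without replicate 3 of KO, in a range of -0.44 to 0.30). The number of the 10 genes that changed was, with 1 library left out, 4 to 7 in P2+ against P2- cells, 1 to 2 in P2- against WT, 3 to 4 in P2+ against WT, 0 to 2 in KO against WT, 0 to 1 in KO against P2- and 3 to 5 in KO against P2+ cells. The 4 came without replicate 3 of P2+ cells, when Fcer1a was not tested, Hdc gave an edgeR adjusted p of 0.0545 and Fcer1g one of 0.0526. The 3 came without replicate 3 of KO cells. With no filter on low counts the number was 3 in P2- and 2 in KO against WT, with filterByExpr 2 and 1, and with DESeq2 2 and 1, since Fcer1a (and, with no filter, Prss34) then entered. With no minimum fold it was 2 in P2- against WT, 5 in P2+ against WT, 4 in KO against WT and 2 in KO against P2- cells. With the replicate block, 7 genes changed in P2+ against P2- cells, as without it, and the block changed no other count of the 10 genes by over 1.5 times. Without replicate 2 of both groups, which differs from leaving out 1 library only in P2+ against P2- cells, 6 changed. Counts under about 10, as in Mcpt8, Prss34 and Fcer1a, limit what can be said of these genes.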
